A study of Tuber melanosporum with 9 samples.

Results

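DNA methylation was compared at single-cytosine resolution between 2 vegetative mycelia of the black truffle Tuber melanosporum that are both given as the Mel28 strain, one grown on malt agar and one grown in liquid medium. These are 2 of the 9 samples of the series, and 2 of its 5 bisulfite libraries. The agar culture is the free-living mycelium (FLM) of the series. The liquid culture, labelled wild type, is the water control of an experiment with the DNA methyltransferase inhibitor 5-azacytidine (5-aza): it grew in the dark at 23 °C in a synthetic medium with glucose as its carbon source and received water without the drug (0 µM) every 5 days for 45 days. The 5-aza-treated liquid culture set beside it further on received the drug at 100 µM every 5 days for 45 days. Each culture is represented by 1 library, so the measurements carry no replicate error and no test between cultures was possible. Medium, culture time, read length (longer in the agar library) and sequencing depth all differ between the 2 libraries, DNA extraction is described differently for them, and their effects cannot be told apart. Cytosines with at least 4 reads in both libraries were compared, 38241446 in all, and a level is the percentage of reads that stayed C after bisulfite treatment, averaged over cytosines. All differences are liquid minus agar, in percentage points, and the standard errors (SE) printed with them cover read counting only.

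Bisulfite turns unmethylated cytosines into bases read as T and leaves methylated ones as C. In filamentous fungi such as Neurospora and Ascobolus, 5-methylcytosine is largely found in repeated DNA, where it accompanies the silencing of transposable elements (TEs). CG sites are symmetric, with a cytosine on each strand, and enzymes of the DNMT1 group can copy their methylation after replication. CHG sites (H being any base but G) can also face a cytosine on the other strand, whereas CHH sites have no such partner. Retrotransposons of class I (Gypsy, Copia, the LINE-type I elements) move through an RNA copy, and class II elements (Tc1/Mariner, hAT, PiggyBac, Mutator, Helitron) move as DNA.

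The agar library held 53500843 cytosines with a mean of 19.9 reads each and the liquid library 49271688 with 7.35. At the CG sites kept, the median depth was 25 reads in agar and 8 in liquid. The kept set was not a random draw: 78.7% of the CG sites with at least 4 reads in agar also had them in liquid, and the agar level averaged 23.6% at those kept and 55.2% at those not kept, of which 61.2% lay in TEs. Depth also stopped at 100 reads in the agar file and reached 1012 in the liquid file, where 20897 cytosines had more than 100 reads.

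The liquid culture was the more methylated of the pair in each context. The CG level was 23.6% in agar and 24.5% in liquid, a difference of 0.906 points (counting SE 0.00261). The size depended on the averaging: with reads pooled over the same cytosines the CG levels were 15.5% and 22.1% (6.62 points), and with at least 10 reads in both libraries the differences were 0.555 points for CG, 0.720 for CHG and 0.582 for CHH. CHG sites had 6.96% in agar and 8.18% in liquid, and CHH sites 8.46% and 9.68%. Most of the excess lay in TEs. Within them CG sites had 74.97% in agar and 77.86% in liquid (2.89 points), CHG sites 14.4% and 17.3% (2.92 points), and CHH sites 17.3% and 20.1% (2.84 points). The 3 contexts thus differed by nearly the same number of points in TEs, on very different base levels, with liquid-to-agar ratios of 1.04 for CG, 1.20 for CHG and 1.16 for CHH. In gene bodies outside repeats, the low-methylation background of both libraries, CG was 0.318% in agar and 0.393% in liquid, CHG 0.292% and 0.335%, and CHH 0.298% and 0.337%. These gene values also hold cytosines that bisulfite failed to convert, and they set the size of a difference between the libraries at DNA with little methylation: 0.0747 points in CG.

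The base after the cytosine set apart the non-CG sites. In TEs, CHG sites followed by C had 13.2% in agar and 18.3% in liquid, a difference of 5.18 points (counting SE 0.0279) and a ratio of 1.39, above those of the other non-CG classes. CHG sites followed by A had 19.2% and 22.2% (ratio 1.16), and those followed by T 10.2% and 12.2% (ratio 1.20). Among CHH sites the order was similar: followed by C 17.97% and 21.7% (ratio 1.21), by T 8.37% and 9.88% (1.18), and by A 25.4% and 28.8% (1.13). So the order of the levels was A above C above T in both cultures for CHG and for CHH, while in points C differed the most in each context. In gene bodies the corresponding CHG classes lay between 0.242% and 0.352% in both libraries, and the class followed by C differed there by 0.0645 points. The cytosine of this class is followed by a CG site, so that the cytosine facing it across the site belongs to that CG site and not to a CHG pair. At 336347 such pairs in TEs, the outer cytosine had 13.2% in agar and 18.3% in liquid while the CG cytosine beside it had 73.3% and 76.2%.

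**Figure D1:**
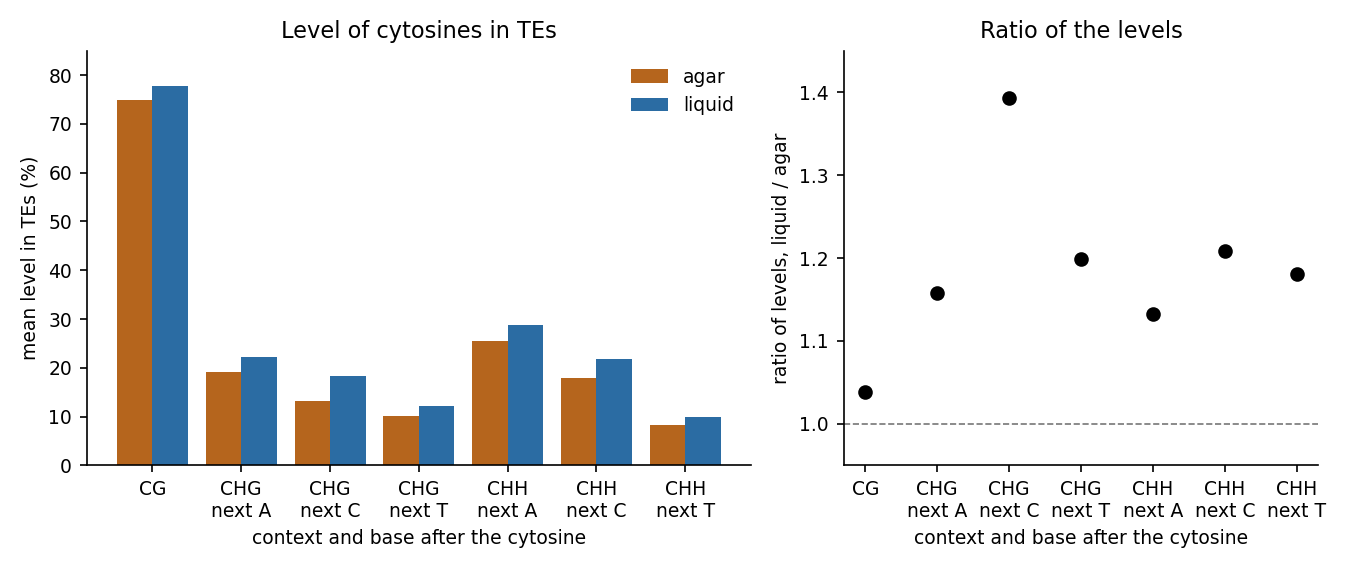
Left, mean level (%) of cytosines in TEs by context and by the base after the cytosine, in the agar and the liquid culture (1 library each). Right, the ratio of the liquid to the agar level, on an axis that does not start at 0: CHG sites followed by C stand at 1.39 and CG sites at 1.04.

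The differences in TEs varied with depth, and depth differed between the libraries. Among CG sites of TEs, the difference was 3.24 points where the liquid library had 4 to 5 reads and 1.63 points where it had 26 to 50. For CHG sites it was 3.24 and 0.992 points, and for CHH sites 3.25 and 0.239 points, in the same depth classes. At sites with 8 to 12 reads in both libraries, a comparison added after these values were seen, the TE difference was 3.10 points for CG and 6.92 points for CHG sites followed by C (14.0% in agar and 20.9% in liquid, ratio 1.49). At sites with at least 10 reads in both, added likewise, it was 2.30 points for CG and 3.97 points for CHG sites followed by C (ratio 1.29). The part of depth in these differences was not tested.

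Both strands of a CG site carried nearly the same level within a library, while the strands of a CHG site did not. At 489348 CG pairs in TEs the strands averaged 72.9% and 72.9% in agar and 75.7% and 75.7% in liquid, with a Pearson r across sites of 0.949 and 0.948. The SD of the difference between the strands was 11.6 points in agar and 12.5 in liquid, where counting error alone gives 10.9 in each. At 337668 CHG pairs with A on one strand and T on the other, the cytosine followed by A had 18.2% in agar and 21.2% in liquid, and its partner followed by T 9.49% and 11.4%. Across these pairs r was -0.00655 in agar and -0.0167 in liquid. These correlations are descriptions over sites of 1 library, whose strands share the position but come from different reads.

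TE superfamilies did not share the liquid excess equally. Of 27168 classified TEs, 24062 had at least 4 CG sites to compare, and their per-TE CG level had a median of 84.0% in agar and 86.9% in liquid. I elements, a group of LINE-type retrotransposons, had the largest median difference among the 15 superfamilies with at least 50 measured TEs, at 3.63 points (interquartile range 1.01 to 6.15, n = 2329 TEs), and 82.2% of them were higher in liquid. Gypsy elements, the most numerous LTR retrotransposons here, had a median of 2.64 points (-0.15 to 5.29, n = 12028), and 73.0% were higher in liquid. PIF-Harbinger DNA transposons had 2.63 points (n = 125), Helitrons 1.98 (n = 58) and other LINEs 1.95 (n = 365). Against this, Tc1/Mariner elements, the most numerous DNA transposons, had a median of 0.49 points (-1.32 to 4.36, n = 4817), Copia elements 0.28 (n = 1307) and hAT elements 0.45 (n = 380). The median Copia copy stood at only 27.3% in agar. Over all sites of a superfamily, CG differed by 1.88 points in Copia, 3.12 in Gypsy, 1.31 in hAT and 1.00 in Tc1/Mariner. The groups with little methylation showed almost no difference in the median CG level per TE. DIRS had 0.595% in agar and 0.667% in liquid, Ngaro 0.387% and 0.508%, and MITEs, short non-autonomous elements, 0.259% and 0%. Among these 15 superfamilies, median differences were thus close to 0 where the typical copy was unmethylated. They were above 1.9 points only where the typical copy was above 84% in agar, although Mutator, at 84.3%, had 0.35 points (n = 97). Penelope elements, with 20 measured and so outside the 15, had a median difference of 8.68 points at a median of 77.5% in agar.

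**Figure D2:**
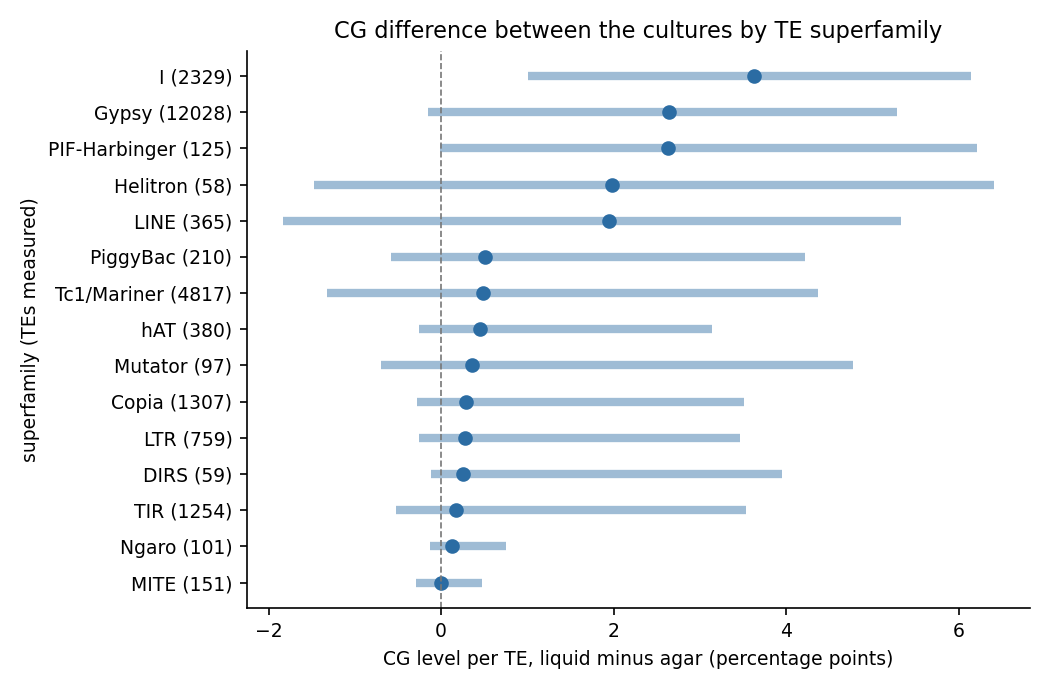
CG level per TE, liquid minus agar, in percentage points, for superfamilies with at least 50 measured TEs (number measured in brackets). Points are medians over TEs and bars are interquartile ranges: the median is 3.63 points in I elements, 2.64 in Gypsy and 0.49 in Tc1/Mariner.

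I elements also stood above the other large superfamilies outside CG. Over their sites CHG was 13.9% in agar and 18.6% in liquid, a ratio of 1.34, and CHH 16.2% and 21.3%, a ratio of 1.32. In Gypsy these ratios were 1.20 and 1.15, in Copia 1.20 and 1.17, and in Tc1/Mariner 1.05 and 1.05. Ngaro, a small superfamily with low levels, had ratios of 1.33 and 1.32 (CHG 3.09% in agar and 4.11% in liquid). CHG sites followed by C had 12.7% and 20.2% in I elements (ratio 1.60), 15.0% and 20.3% in Gypsy (1.36), and 10.8% and 13.3% in Tc1/Mariner (1.23), so this class had the largest ratio in each of the 3. Helitrons had levels of 24.7% in agar and 24.6% in liquid at CHH sites, although their CG level differed by 3.86 points. Depth moved with the superfamily: CG sites of I elements had a mean of 16.4 reads in agar and 8.71 in liquid, those of Tc1/Mariner 20.7 and 8.21, and its part in these differences was not tested.

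Across single TEs the difference between the cultures was centred near 0 but broader than read counting gives. The 24062 TEs had a median of 1.89 points (interquartile range -0.34 to 5.02) and an SD of 7.20 points, whereas the counting error of the same TEs amounts to an SD of 2.51 points. In CHG the SD was 4.50 points against 3.20 from counting, and in CHH 3.84 against 1.83. A difference of at least 20 points in CG, the size used in the study for a TE, was found for 337 TEs in the direction of the liquid culture (1.4% of those measured) and for 274 in the direction of the agar culture (1.14%). In CHG 63 TEs of 26046 were at least 20 points higher in liquid and 17 lower, and in CHH 37 of 26913 higher and 3 lower. No TE was below 10% in one culture and above 80% in the other, which allows a share of up to 0.0153% of TEs (exact binomial interval, 95%). By these bounds 58.5% of TEs were high in both cultures and 14.0% low in both, 7.12% went from the middle range in agar to high in liquid, and 3.11% from high in agar to the middle range in liquid.

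A pair of other comparisons, each sharing 1 library with this one, is set beside this spread. Over the 23641 TEs measured in all 3, the SD of the CG difference was 7.05 points between the agar and the liquid mycelium (counting error 2.45). It was 13.1 points between the agar mycelium and a fruitbody collected in the field, not given as Mel28 (counting error 1.98). It was 3.03 points between the untreated and the 5-aza-treated liquid mycelium (counting error 2.54), which were grown side by side. TEs at least 20 points apart numbered 573, 1944 and 21 in that order. The libraries were matched unequally. Agar and fruitbody had the same read length and mean depths of 19.9 and 20.1 reads. Untreated and treated liquid also shared a read length, at 7.35 and 8.64 reads, whereas agar and liquid differed in both traits. The difference between these spreads was not tested, since each rests on 1 library per condition. The study also reports copy number differences between the fruitbody and the agar mycelium. The part of genotype in this spread, and in the fruitbody levels given further on, was not tested.

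**Figure D3:**
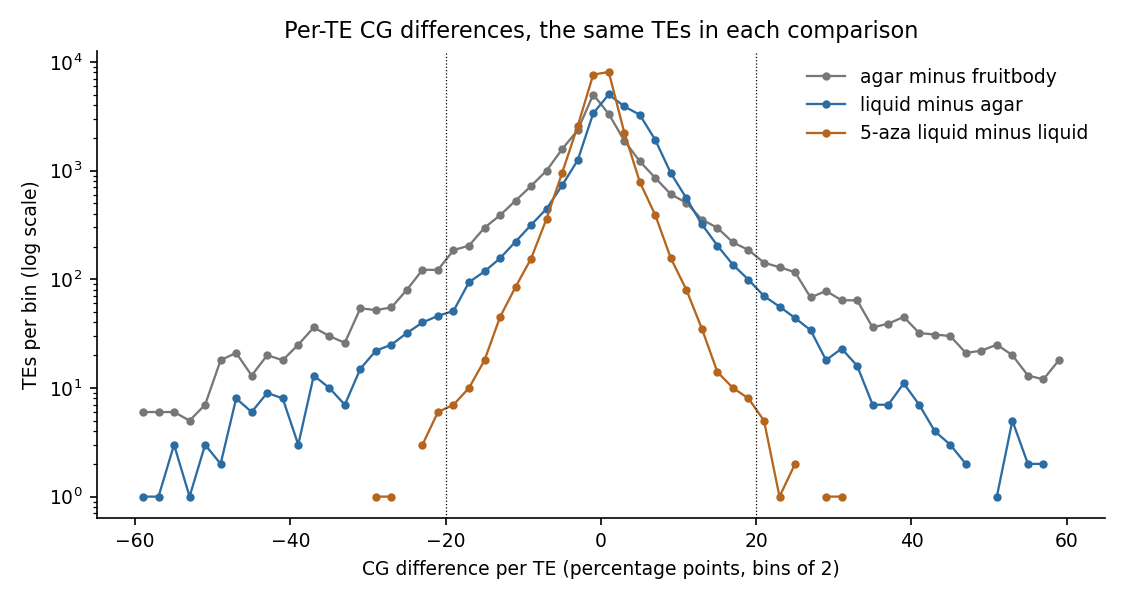
Number of TEs per bin of 2 points of CG difference, on a log scale, for the 23641 TEs measured in each of the 3 comparisons, with dotted lines at 20 points on either side. Counts of TEs at least 20 points apart are 573 for liquid against agar, 1944 for agar against fruitbody and 21 for 5-aza-treated against untreated liquid; 6 TEs beyond the axis in the first and 216 in the second are not drawn.

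Differences past 20 points were more frequent among short TEs. Of the 2168 measured TEs of up to 300 bases, 89 were at least 20 points higher in liquid and 52 lower, 6.50% together, whereas of the 4278 longest TEs, above 4 kb, 5 were higher and 0 lower, 0.117% together. The counting SD was 3.23 points in the shortest class and 1.07 in the longest, and the observed SD 10.0 and 2.98. The median difference had the opposite order, with 0 points in the shortest class and 3.39 in the longest. The fruitbody library, which is on neither side of the comparison, ordered the TEs as well. TEs below 10% CG in the fruitbody had a median difference of 0 and an SD of 4.50 points (n = 3577), and those at 30% to 50% an SD of 11.4 points (n = 606), with 7.76% of them past 20 points. TEs at 80% to 90% had a median of 3.16 points, an SD of 5.96 and 1.38% past 20 points (n = 9099).

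The TEs past 20 points shared some features, of which length is not independent of the threshold. Short TEs hold few CG sites, and a mean over few sites passes 20 points more easily. With at least 10 CG sites per TE, 104 of 19128 were at least 20 points higher in liquid and 86 lower. Among all measured TEs, the 337 higher in liquid had a median length of 473 bases and the 274 lower in liquid 499.5. The other 23451 had 1257 bases. The median number of CG sites was 7 in each of these groups of 337 and 274, and 26 in the others. In the 5-aza-treated liquid culture, which is not part of the comparison, the first group had a median CG level of 93.7%, beside 95.4% in untreated liquid and 65.3% in agar. The second group had 51.2% in the 5-aza-treated culture, beside 50.0% in untreated liquid and 81.2% in agar. Both groups therefore stood in the treated liquid culture near where they stood in the untreated one. Both liquid libraries also had the same read length, shorter than in agar. Their mean depths were 8.64 reads (treated) and 7.35 (untreated), against 19.9 in agar. The part of these library traits was not tested. In the fruitbody the first group had 83.1% and the second 74.7%. The states of single CG sites, given only as a description because the same values chose the groups, were as follows. In the group higher in liquid, 35.4% of CG sites with at least 10 reads in both libraries were between 10% and 80% methylated in agar and 10.2% in liquid. In the group lower in liquid these shares were 24.7% and 15.9%, and sites below 10% made up 15.0% in agar and 52.5% in liquid. In the other TEs 14.8% of sites were in the middle range in agar and 9.33% in liquid; the liquid library had 13.6 reads at these sites on average and the agar library 23.5. Genes overlapped 1 TE of the first group (0.297%) and 2 of the second (0.730%), against 1.11% of all measured TEs.

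RNA reads were found on few of these TEs. At least 1 read unique to the TE was counted for 17 of the 274 TEs lower in liquid in the agar RNA library (6.20%) and for 42 in the liquid RNA library (15.3%). For the 337 TEs higher in liquid these numbers were 5 (1.48%) and 8 (2.37%), and over all 24062 TEs 4.55% and 9.23%. At least 10 times as many reads in liquid, and at least 20, were counted for 5 of the 274 (1.82%), for 0 of the 337, and for 27 of the other 23451 (0.115%). Of those 5, 4 are copies of 1 LINE family described further on. The reverse was counted for 0, 0 and 15 TEs. Classified TEs took 194684 RNA reads in agar and 489103 in liquid, beside 23816308 and 22446163 reads on genes. Each RNA library is also 1 sample, and these shares were not tested.

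Of the 6 TEs that were most methylated in agar relative to liquid (at least 10 CG sites), 5 were Tc1/Mariner elements. This superfamily held 4817 of the 24062 TEs with at least 4 CG sites, and 112 of the 274 at least 20 points lower in liquid. By that size 81 of its TEs were higher in liquid. In Gypsy, 97 of 12028 TEs were lower by that size and 155 higher. The first of the 5 (Tmel-B-R333-MAP6) lies on scaffold 1 (2315735 to 2316419 of the v1.0 assembly), 331 bases from the nearest gene with coordinates. Its CG level was 93.1% in the fruitbody, 63.1% in agar, 0% in liquid and 0.862% in the 5-aza-treated liquid culture. In agar 13 of its 28 sites were above 80% and 5 below 10%, whereas in liquid all 28 were below 10%. There 0 of 264 read calls, summed over its CG sites, were methylated. The upper bound from this, 1.14% (3 over 264), treats the calls as independent. A read that spans several sites counts more than once, so the bound may be too low. Its CHH level was 11.1% in agar and 0.0825% in liquid, and the kilobase on its left had 0.333% and 0.440% CG methylation. The kilobase on its right (62 sites) had 7.46% in agar and 0.230% in liquid. The element was thus methylated in the fruitbody and in agar and had no detected CG methylation in liquid.

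The other 4 Tc1/Mariner elements of the group had lower but not always absent CG methylation in liquid. A 1690-base copy on scaffold 8 (489983 to 491672) had 54.4% in the fruitbody, 56.2% in agar, 1.59% in liquid and 2.25% in 5-aza-treated liquid, and both its flanks were below 0.4% in both cultures. A copy on scaffold 41 (152540 to 153439) had 52.2%, 46.6%, 2.75% and 2.19% in the same order, beside a left flank at 87.8% in agar and 92.7% in liquid. The copy on scaffold 108 (73752 to 74934) had 50.8%, 65.7%, 22.2% and 25.5%, and in liquid 25 of its 34 sites were below 10% while 5 were above 80%. The copy on scaffold 153 (76480 to 76892) had 82.1%, 58.0%, 15.5% and 14.8%. In each of the 5 the untreated and the treated liquid culture lay within 4 points of each other, and 0 or 1 RNA reads were counted in either mycelium.

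The 6 TEs with the largest excess in liquid came from 6 superfamilies. A Helitron (Tmel-B-G5761-MAP7) on scaffold 152 (200787 to 201578) had 0.559% CG methylation in the fruitbody, 7.34% in agar, 50.0% in liquid and 50.4% in 5-aza-treated liquid. Its 18 sites were split in liquid: the 9 up to 375 bases from its start were above 80% and the 9 from 383 bases on were below 10%, where in agar 13 were below 10% and 5 between 10% and 80%. The kilobase to its left was at 88.0% in agar and 94.0% in liquid and the kilobase to its right at 0.580% and 0%. A Tc1/Mariner copy (Tmel-B-R94-MAP13) of 265 bases on scaffold 363 (2999 to 3263) had the same kind of setting: 0.355% in the fruitbody, 25.5% in agar, 66.7% in liquid and 66.2% in treated liquid, with 8 of 12 sites above 80% in liquid and 2 in agar, a methylated left flank (79.7% and 88.3%) and a right flank at 0.134% and 0%. In the Helitron the methylated sites of the liquid culture therefore formed 1 stretch on the side of the methylated flank, whereas in the Tc1/Mariner copy sites above 80% were found up to 252 bases from the start, on both sides of the 4 below 10%, and the fruitbody had next to no CG methylation in either.

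The remaining 4 were methylated in every library. A Penelope element (Tmel-B-G5951-MAP7) on scaffold 145 (288511 to 294434) had 76.9% in the fruitbody, 59.2% in agar, 99.1% in liquid and 97.6% in treated liquid, with 22 of 22 sites above 80% in liquid and 8 in agar. It was also the only one of the 12 with fewer reads per site in agar (8.55) than in liquid (9.91). A PiggyBac element on scaffold 104 (6201 to 6950) had 84.8%, 37.1%, 76.0% and 68.7% in that order. A Copia element on scaffold 76 (232420 to 232897) had 93.5%, 56.9%, 92.6% and 82.7%, and an I element at the end of scaffold 80 (44 to 1385) had 79.6%, 52.9%, 86.8% and 80.2%. In these 4 the agar culture was the lowest of the 4 libraries, and no RNA read was counted in either mycelium.

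**Figure D4:**
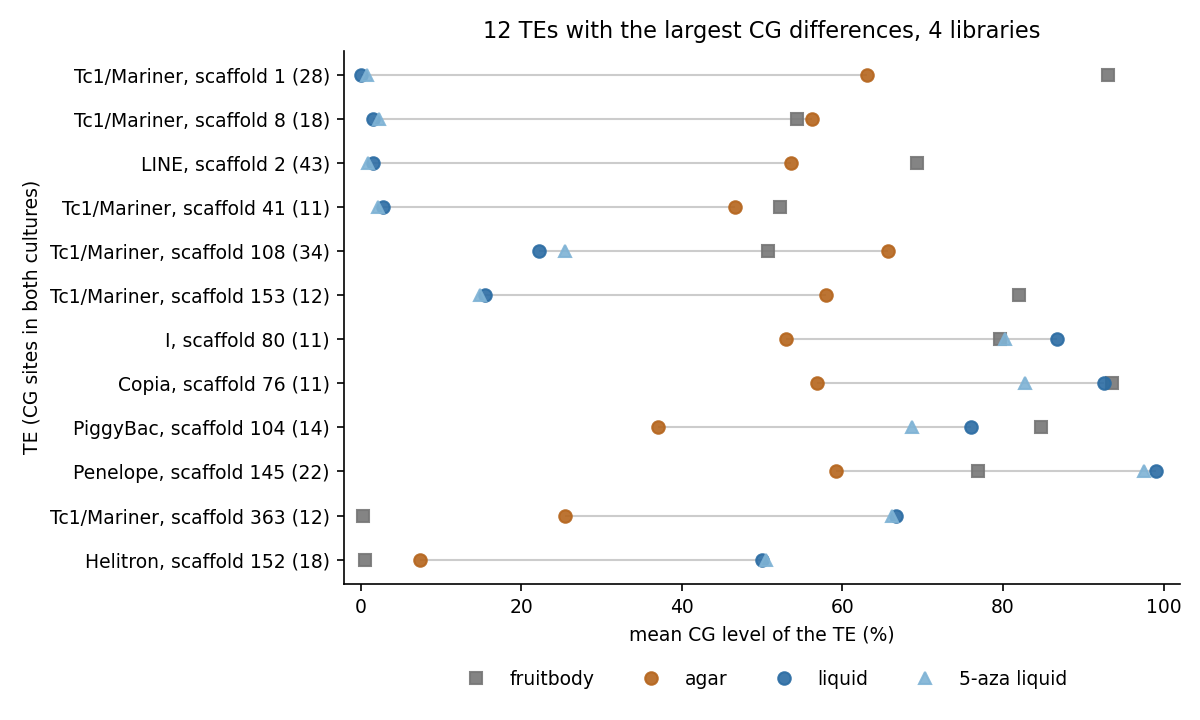
Mean CG level (%) of the 6 TEs with the largest difference in each direction, in 4 libraries of 1 sample each; the number of CG sites with at least 4 reads in both mycelia is in brackets and a grey line joins agar and liquid. The treated liquid culture sits beside the untreated one in each element lower in liquid, for example 0.862% and 0% in the Tc1/Mariner on scaffold 1.

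The remaining TE of the 6 lower in liquid was a LINE (Tmel-B-G2201-MAP5) on scaffold 2 (1435031 to 1435927, minus strand), and its RNA differed between the cultures too. CG was 69.3% in the fruitbody, 53.6% in agar, 1.53% in liquid (5 of 349 read calls over its sites methylated) and 0.868% in treated liquid. CHG was 7.52% in agar and 0.227% in liquid, and CHH 7.53% and 0.596%. Both flanks had CG levels below 0.6% in both cultures, and the nearest gene with coordinates is 1136 bases away. RNA reads unique to this copy numbered 52 in agar and 6990 in liquid. As single libraries with near-equal totals on genes, these counts have no replicate error.

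The annotated repeats hold 55 copies of this LINE family, with a median length of 899 bases, and 53 could be compared. Their CG level had a median of 82.5% in the fruitbody, 74.5% in agar and 67.1% in liquid, and 28 copies were lower in liquid and 24 higher. The copies differed among themselves: 6 copies were at least 20 points lower in liquid (11.3%, against 1.14% of all TEs measured) and 0 were 20 points higher, the 6 including the scaffold 2 copy through which the family was chosen, while the median difference was -0.80 points. Copies below 10% numbered 1 in the fruitbody, 3 in agar, 11 in liquid and 10 in treated liquid. On scaffold 16 (90355 to 91248) a copy had 77.9% in the fruitbody, 24.3% in agar and 0% in liquid, with 361 RNA reads in agar and 4446 in liquid. On scaffold 8 (853478) a copy had 83.5%, 11.4% and 1.03%, with 618 and 8188 reads. A copy on scaffold 42 was already unmethylated in agar, with 81.7%, 0.907% and 1.30%, and had 160 reads in agar and 365 in liquid. A copy on scaffold 223 had 66.3%, 0.527% and 0.455%, with 117 and 69 reads, the reverse order of RNA.

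Nearly all RNA reads of the family, in both cultures, fell on the copies that were below 10% in liquid. The 11 copies below 10% in liquid took 21308 of the 21540 RNA reads of the family in liquid and 1460 of its 1467 reads in agar, where their CG level ranged from 0% to 53.6%. The 20 copies between 10% and 80% took 170 reads in liquid, and the 22 copies above 80% took 62, of which 61 fell on a single copy at 81.6%. The family held 0.754% of the RNA reads on classified TEs in agar and 4.40% in liquid. Reads were kept only where they fit 1 place, so reads from stretches that copies share were lost and those of near-identical copies may be divided wrongly between them.

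**Figure D5:**
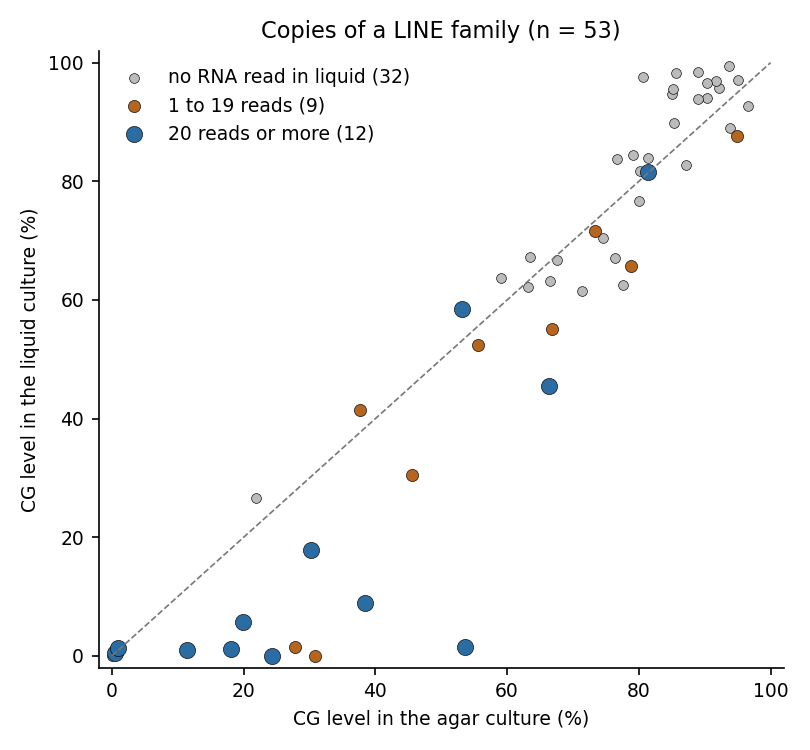
CG level (%) of 53 copies of the LINE family in the agar culture (x axis) and in the liquid culture (y axis), coloured by the number of RNA reads on the copy in liquid; the dashed line marks equal levels. Of the 12 copies with at least 20 reads, 8 are below 10% in liquid, and 32 copies without a read lie mostly at high levels in both cultures.

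Over the whole genome, most single CG sites were in the same state in both cultures, largely as unmethylated sites outside TEs. Of 2048484 CG sites with at least 10 reads in both libraries, 80.8% were below 10% methylated in both (exact binomial interval 80.7% to 80.8%) and 13.7% above 80% in both (13.7% to 13.8%). Only 2706 sites (0.132%) were low in agar and high in liquid, and 4461 (0.218%) high in agar and low in liquid. The other 105365 sites (5.14%) were between these bounds in at least 1 culture, and 66.0% of them lay in TEs. These intervals treat sites as independent draws and cover counting only. TEs held 76.2% of the sites high in both cultures, 3.26% of those low in both, and 76.0% and 73.5% of those that switched, so that sites in opposite states were found in TEs about as often as stably methylated ones.

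Gene bodies were unmethylated in both cultures with a handful of exceptions. Of 7496 genes, 7420 had coordinates and 7387 at least 4 CG sites, with a median level of 0.267% in agar and 0.335% in liquid, and 7343 were below 10% in both. A difference of at least 10 points was found for 7 genes (0.0948%), 4 higher and 3 lower in liquid. Of the 4 with at least 10 sites, 3 lay wholly or almost wholly in annotated repeats and had no RNA read: GSTUMT00010740001 on scaffold 74, GSTUMT00001803001 on scaffold 120 and GSTUMT00009905001 on scaffold 63. Their CG levels were 93.6%, 85.5% and 62.5% in agar and 76.3%, 100% and 74.9% in liquid.

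The fourth, GSTUMT00009672001 on scaffold 6 (849371 to 852097), has no repeat in its body, and the closest annotated one, a Copia element, is 15605 bases away. Its CG level over 221 sites was 22.1% in agar and 6.18% in liquid (difference -15.9 points, counting SE 0.480), beside 0.468% in the fruitbody and 7.10% in treated liquid. The methylation lay at one end. In the first 500 bases by coordinate (53 CG sites) the level was 79.8% in agar and 24.7% in liquid, and in the 500 bases before the gene (33 sites) 69.0% and 53.8%. In the next 500 bases (49 sites) it was 12.9% in agar and 0.547% in liquid, and the rest of the body was below 0.6% in both. Its RNA reads numbered 193 in agar and 176 in liquid. The gene neighbours the homolog of PP1, a phosphatase that assists DNA methylation in Neurospora, which begins at 852175 and was at 0.251% and 0.417%. Its strand was not known here.

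The genes for the methylation apparatus were themselves unmethylated in both cultures. TmelDnmt1, a methyltransferase like RID and Masc1, had a CG level of 0.355% in agar and 0.339% in liquid, and TmelDnmt2, like the Neurospora methyltransferase DIM-2, 0.237% and 0.348%. The homologs of DIM-5, a histone H3 lysine methyltransferase, of HP1, which binds the mark DIM-5 makes, and of DMM-1, which limits the spread of methylation in Neurospora, were between 0.221% and 0.586%. RNA reads per gene numbered 867 in agar and 1286 in liquid for TmelDnmt1, 569 and 2490 for TmelDnmt2, 2071 and 1396 for DIM-5, 3770 and 6954 for HP1, 9424 and 6692 for PP1, and 1353 and 2626 for DMM-1. The counts were thus higher in liquid for 4 of the 6 and lower for 2, with no replicate to set them against.

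Most TEs lay in regions with similar relative coverage in both libraries. Windows of 100 kb where the natural log ratio of relative coverage passed 0.3 numbered 56 with less and 34 with more coverage in liquid. TEs had a median CG difference of 1.93 points in the 1377 other windows (n = 23029), 0.95 in windows lower in liquid (n = 836) and 3.001 in those higher in liquid (n = 197), with SDs of 7.22, 6.79 and 6.13 points. Over single TEs, the difference moved with the ratio of reads: from the fifth of TEs with the fewest liquid reads per agar read to the fifth with the most, the median difference was 0.10, 1.35, 2.32, 3.03 and 3.10 points, and the median CG level in agar 33.3%, 78.4%, 83.9%, 86.4% and 88.1%. Level and coverage ratio thus varied together, and the part of coverage was not tested.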

How the data were processed

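Per the labels and the study's methods, the authors aligned bisulfite reads to the v1.0 assembly (398 scaffolds) with BS Seeker (version not given in the sources used here) and deposited for each cytosine the counts of methylated and of all reads. Deposited RNA values used are read counts per gene and TE of unique alignments (TopHat, HTSeq). Agar positions count from 0 and were raised by 1, after which 100% of positions shared with the liquid calls had the same context and strand (12.6% without the shift). Levels were averaged over cytosines with at least 4 reads in both libraries. TEs and genes needed 4 CG sites. Counting errors come from the binomial variance of each site. Repeat classes are the authors'. Gene positions came from RefSeq annotation ASM15164v1 by locus tag, on scaffolds given by the authors' tables.

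With 1 library per culture no p-value was computed. TEs named have at least 10 CG sites and a difference of at least 20 points (the 6 largest each way), genes at least 10 points (up to 4 each way). The LINE family was followed because a named copy belongs to it, and the gene for PP1 and the other homologs because the study names them. Members and lists were chosen with earlier results of these data known. The per-TE steps were tested on simulated data. Alternatives changed the depth minimum, depth matching, pooling of reads, sites per TE, gene overlap and windows. The reads carry no molecular identifiers, so intervals cover counting error only. The deposited calls of the mycorrhiza were not used here. Computations used Python 3.11.15, numpy 2.4.6, pandas 2.3.3, scipy 1.17.1 and matplotlib 3.10.9.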

Additional observations from a re-analysis of the deposited data

How the results depend on the processing

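The liquid culture was the more methylated in all 47 differences recomputed under an alternative, among them the 15 superfamily levels at 10 reads and 14 TE levels added after seeing the data (CG, and CHG and CHH by next base), but sizes differed. For CG, CHG and CHH in turn, the difference was 0.555, 0.720 and 0.582 points with at least 10 reads in both libraries, 1.099, 1.54 and 1.61 with at least 1 read, 6.62, 2.26 and 2.25 with reads pooled over cytosines (CG 15.5% in agar and 22.1% in liquid), 1.86, 2.81 and 2.33 at 8 to 12 reads in both, and for CG 0.913 without windows of unequal coverage. In gene bodies at 10 reads it was 0.116, 0.0777 and 0.0854 points, and 2 genes instead of 7 were at least 10 points apart. The SD of per-TE CG differences was 7.57 points at 10 reads, 5.55 with at least 10 CG sites per TE, 8.55 with 1, and 8.10 with pooled reads. TEs higher and lower in liquid by 20 points numbered 228 and 169 at 10 reads, 104 and 86 with 10 sites, 500 and 413 with 1 site, and 583 and 312 with pooled reads, against 337 and 274. With at least 4 reads instead of 10, 71.6% of CG sites were low and 19.1% high in both. The causes were not tested. Depth limits single sites: at 4 reads, the minimum, a level can take few values. No paired analysis was possible because each culture has 1 library.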

Other observations

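Repeats without a class were 16038 in number with at least 4 CG sites, and the median CG difference over them was 0.18 points (SD 6.04). Of them 165 (1.03%) were at least 20 points higher in liquid and 134 (0.836%) lower, beside 1.4% and 1.14% of classified TEs. Chosen after their values were seen, a 2757-base repeat at the end of scaffold 51 had 20.8% in agar, 97.4% in liquid and 93.6% in 5-aza-treated liquid over 19 CG sites, and a 3798-base repeat on scaffold 162 had 33.6%, 96.2% and 81.6% over 14. In the other direction, a 579-base repeat on scaffold 7 had 71.2% in agar and 13.4% in liquid over 11 CG sites, with 0 RNA reads in either mycelium. A 226-base repeat on scaffold 22 had 0% in the fruitbody, 45.8% in agar, 0% in liquid and 0.781% in treated liquid over 11 CG sites. It had 0 RNA reads in agar and 95 in liquid. Repeats on scaffolds 9, 1 and 34 that were also lower in liquid had 0, 2 and 0 RNA reads in liquid.

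Of the 317 repeat families with at least 20 measured copies, 263 had a median CG difference above 0 and 19 below. A Tc1/Mariner family of 20 copies, 4409 bases long in the median, had the largest, 6.76 points, with a median of 86.2% in agar and 93.4% in liquid. A Copia family of 76 short copies (median 297.5 bases), chosen after its values were seen, had a median difference of 0 points. Of its 76 copies 7 were at least 20 points lower in liquid and 0 higher. Among all 24062 measured TEs 1.14% were lower and 1.4% higher by that size. Among TEs of up to 300 bases 6.50% were past 20 points in either direction.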
